A study of Mus musculus with 6 samples.

Results

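The genes described here are 27 genes of cholesterol synthesis and its control by the SREBP transcription factors, taken by symbol from the 27998 genes of the count tables. All 27 symbols were found once in each library. They comprise 8 genes of the mevalonate part of the pathway, 11 genes that lead from squalene formation to cholesterol, 5 genes that sense sterols or process SREBP, and 3 genes of sterol transfer and fatty acid desaturation. Their levels were read per cell class in 6 single-cell libraries of the stress hormone axis of the mouse: the paraventricular nucleus of the hypothalamus with its surroundings (PVN), the pituitary and the adrenal gland. In each tissue, 1 library came from mice after 21 days of chronic social defeat, in which a mouse is repeatedly defeated by an aggressor, and 1 from unstressed controls. All mice were C57BL/6 and 10 weeks old, no genetic alteration is named in the labels, and each library pooled 5 mice. Per the labels' protocols, both conditions of a tissue shared a chip. With 1 library per tissue and condition there was no replicate, so no difference was tested. The intervals given are exact at the 95% level; they cover counting error only, and the spread between mice is not in them.

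Cells make cholesterol from acetyl-CoA through mevalonate, isoprenoid units, squalene and a series of sterols. When membrane sterol is low, Scap carries the precursor proteins of Srebf1 and Srebf2 from the endoplasmic reticulum to the Golgi for cleavage, and the freed factors switch on the genes of the pathway; Insig proteins hold Scap back when sterol is plentiful. The brain makes its own cholesterol, with glia as a major source, because lipoproteins of the blood do not cross into it. The adrenal cortex uses cholesterol as the precursor of all its steroids, and in rodents takes much of it up from high-density lipoprotein through Scarb1.

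Barcodes numbered 3612 (stress) and 3653 (control) in the PVN libraries, 5103 and 5202 for pituitary, 3183 and 2330 for adrenal. Median UMIs (unique transcript molecules) per barcode lay between 5594 and 10288. In the adrenal, 378 stress barcodes and 130 control barcodes were removed for a high mitochondrial share. Between 10 and 39 barcodes were shared by the stress and the control library of a tissue. Cells were clustered without the 27 genes and called X-like from marker genes. Levels are UMIs of a gene divided by all UMIs of its class on the usual CPM scale, without scaling by gene length, so they are compared between classes and libraries and not between genes. Cyp11b1 and Cyp11b2 were among the markers that named the cortex classes and were not left out of the clustering genes. Their levels thus do not test the names. The zona fasciculata-like cells held the glucocorticoid-forming Cyp11b1 at 2406 and 2136 CPM (stress and control), and the zona glomerulosa-like cells at 567 and 363 CPM. The aldosterone synthase gene Cyp11b2 was at 3.33 and 3.11 CPM in zona fasciculata-like and 53.1 and 34.3 CPM in zona glomerulosa-like cells. Of 6 oligodendrocyte markers, 4 (stress) and 3 (control) were detected in zona fasciculata-like cells, with sums of 18.8 and 11.6 CPM. Of 7 astrocyte markers it was 5 and 6, with sums of 31.2 and 38.8 CPM. Mog, Mobp and Aqp4 were at 0 in these cells in both adrenal libraries. Of 6 neuron markers 3 and 5 were detected there, with sums of 3160 and 2706 CPM.

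Summed over the 27 genes, the adrenal cortex stood in the middle of the cell classes and 4 glial classes of the PVN highest (plot of summed level by class). In the cortex, zona fasciculata-like cells had 967 CPM (944 to 990.3, 516 cells) in the stress library and 877 CPM (858 to 896, 620 cells) in the control library, which placed them ninth of the 26 named classes with at least 20 cells in the stress libraries, dividing cells aside, and eleventh of 27 in the control libraries. The zona glomerulosa-like cells had 886 CPM (869 to 903, 842 cells) and 818 CPM (801 to 835, 738 cells). A cortex cluster with markers of both zones, left without a zone name, had 613 and 683 CPM over 373 and 195 cells. Corticotrope-like cells, the source of ACTH, had 925 and 781 CPM, near the cortex, and somatotrope-like cells, the growth hormone cells, 386 and 394 CPM. In somatotrope-like cells the 5 somatotrope markers, Gh among them, took 603523 and 569360 CPM (stress and control). That leaves less of the scale for all their other genes, so low CPM values in this class depend on the scaling. Adrenal macrophage-like cells, led by inflammatory genes such as Cxcl2 and Il1b, were lowest, with 291 and 292 CPM. Neighbouring classes often had overlapping intervals, also among the highest, as with oligodendrocyte-like and tanycyte-like cells in the stress libraries.

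In the PVN, astrocyte-like cells reached 3254 CPM (3158 to 3353, 375 cells) in the stress library and 2994 CPM (2873 to 3119, 213 cells) in the control library. Oligodendrocyte precursor-like cells had 2536 and 2772 CPM, oligodendrocyte-like cells 2241 and 1968 CPM, and tanycyte-like cells, the radial glia of the ventricle floor, 2235 and 2227 CPM. These were the first 4 classes in both conditions. Neuron-like cells followed with 1397 and 1341 CPM, and their intervals lay below those of the 4 glial classes. Microglia-like cells, the immune cells of the brain, were not among these, with 559 and 515 CPM.

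**Figure D1:**
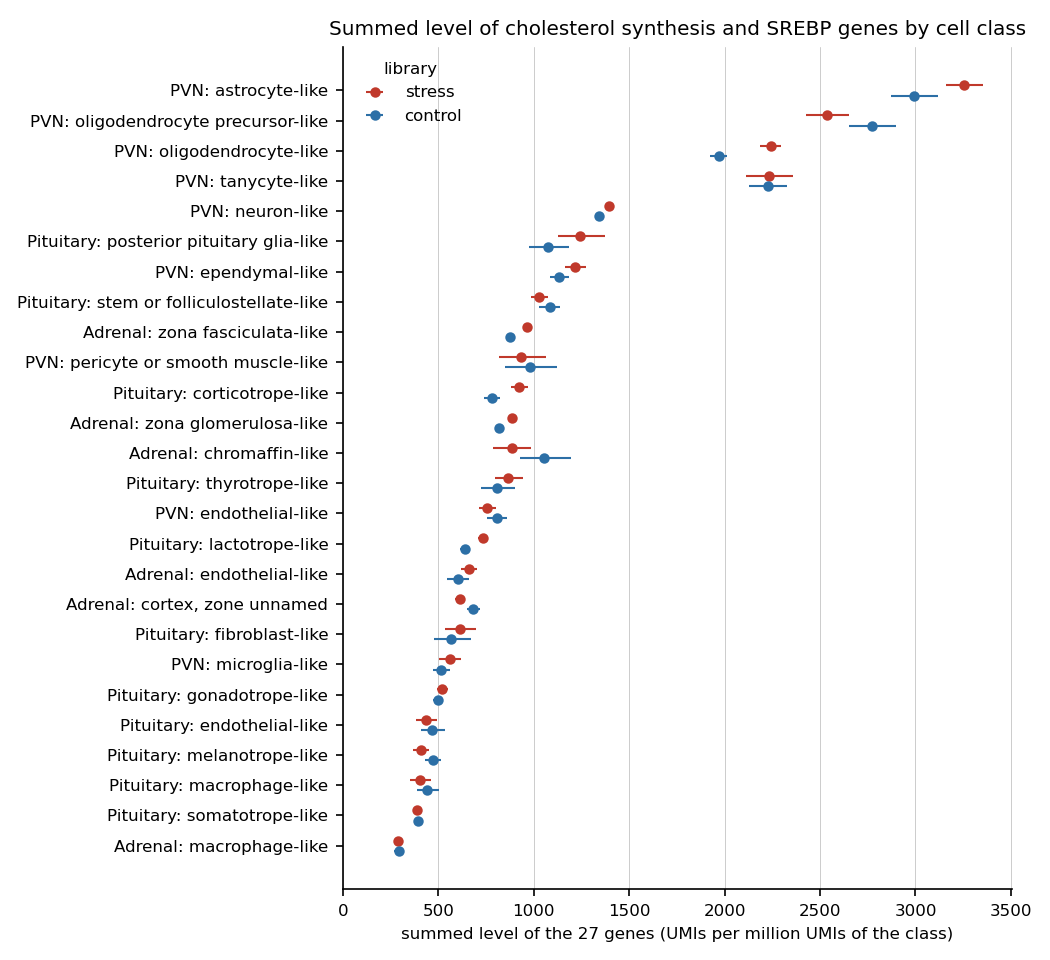
Summed level of the 27 genes per cell class, in CPM, in the stress library (red) and the control library (blue); bars are exact 95% counting intervals. The zona fasciculata-like cells sit at 967 and 877 CPM, astrocyte-like cells at 3254 and 2994 CPM and adrenal macrophage-like cells at 291 and 292 CPM.

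The number of the genes seen in a single cell followed a similar order. After thinning each cell to 2000 UMIs, 1.78 of the 27 genes were seen per zona fasciculata-like cell in the stress library and 1.65 in the control library. The same mean was 5.09 and 4.84 in astrocyte-like cells, 1.59 and 1.47 in corticotrope-like cells and 0.547 and 0.662 in adrenal macrophage-like cells. Without thinning, zona fasciculata-like cells showed 7.45 and 8 of the genes at median depths of 12012 and 13168 UMIs, and astrocyte-like cells 7.72 and 7.49 at 3390 and 3355 UMIs.

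Since most of the genes were high in the same classes, their promoters were read for shared letters. RefSeq promoter windows of build GRCm38.p6, from 250 bases before to 50 bases after a transcription start, were found for 22 of the 27 genes; Fdps, Fdft1, Sqle, Stard4 and Fads1 were not matched. CCAAT, the letters bound by NF-Y, which acts together with SREBP at sterol genes, stood on either strand in 19 of 22 genes (86.4%), against 41.1% of all 27025 genes of the table. It stood at least 2 times in 11 of 22 genes (50%), against 13.3%. Some genes have several windows. Counted per window, CCAAT stood in 20 of 30 (66.7%), against 37.4% of all windows. It stood at least 2 times in 11 of 30 (36.7%), against 11.7%. GGGCGG, an Sp1 box, stood in 20 of 22 (90.9%), against 38.2%; the genes' windows were also richer in G and C, with a median of 64.3% against 53.3%. The sterol regulatory element TCACNCCAC was matched in 1 of 22 genes, Hmgcs1, against 1.44% of all genes, and ATCACGTGA in none, against 0.374%. Each motif was searched on both strands and counted on its own, also where its letters overlap another's, and a match of letters describes the window and not a bound site.

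Of the 6 windows shown, Hmgcs1 (chr13:119690101-119690400, plus strand), Idi1 (chr13:8885356-8885655, plus strand), Msmo1 (chr8:64733529-64733828, minus strand) and Insig1 (chr5:28071162-28071461, plus strand) belong to genes that were high in glia, while Dhcr7 (chr7:143829964-143830263, plus strand, the third of its listed windows) and Fads2 (chr19:10101454-10101753, minus strand) belong to genes with a high level in the adrenal cortex, Fads2 in astrocyte-like cells as well. Capitals mark CCAAT on either strand (where it lies on the other strand, its reverse complement) and, in Hmgcs1, also the sterol regulatory element. The windows hold 4 CCAAT matches in Hmgcs1, 2 in Idi1, 3 in Msmo1, 1 in Insig1, 2 in Dhcr7 and 0 in Fads2. The first listed window of Dhcr7 (chr7:143822917-143823216) holds 0; a gene counts as holding a motif where any of its windows does. Sequences are given 5′ to 3′ on the gene's strand.
Hmgcs1: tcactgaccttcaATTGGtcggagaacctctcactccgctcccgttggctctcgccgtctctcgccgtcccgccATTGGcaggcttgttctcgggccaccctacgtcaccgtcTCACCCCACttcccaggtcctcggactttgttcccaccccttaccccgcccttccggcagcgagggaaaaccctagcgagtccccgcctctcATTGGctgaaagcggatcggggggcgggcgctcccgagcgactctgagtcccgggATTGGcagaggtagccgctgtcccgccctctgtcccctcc
Idi1: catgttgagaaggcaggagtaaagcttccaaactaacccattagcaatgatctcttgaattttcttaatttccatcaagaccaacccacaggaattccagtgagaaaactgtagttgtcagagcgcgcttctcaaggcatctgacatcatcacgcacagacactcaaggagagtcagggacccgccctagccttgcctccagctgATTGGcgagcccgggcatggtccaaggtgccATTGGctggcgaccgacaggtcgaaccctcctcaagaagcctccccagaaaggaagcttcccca
Msmo1: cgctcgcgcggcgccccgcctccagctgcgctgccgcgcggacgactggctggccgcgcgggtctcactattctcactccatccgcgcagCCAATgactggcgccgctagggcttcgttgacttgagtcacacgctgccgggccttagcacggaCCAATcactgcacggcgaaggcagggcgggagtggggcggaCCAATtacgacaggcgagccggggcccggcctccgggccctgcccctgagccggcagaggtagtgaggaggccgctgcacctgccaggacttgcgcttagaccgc
Insig1: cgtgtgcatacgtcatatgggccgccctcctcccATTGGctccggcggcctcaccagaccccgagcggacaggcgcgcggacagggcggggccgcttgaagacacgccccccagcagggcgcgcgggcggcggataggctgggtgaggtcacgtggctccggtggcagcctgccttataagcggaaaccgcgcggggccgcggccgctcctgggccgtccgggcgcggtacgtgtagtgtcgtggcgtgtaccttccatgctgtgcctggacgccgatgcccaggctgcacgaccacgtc
Dhcr7: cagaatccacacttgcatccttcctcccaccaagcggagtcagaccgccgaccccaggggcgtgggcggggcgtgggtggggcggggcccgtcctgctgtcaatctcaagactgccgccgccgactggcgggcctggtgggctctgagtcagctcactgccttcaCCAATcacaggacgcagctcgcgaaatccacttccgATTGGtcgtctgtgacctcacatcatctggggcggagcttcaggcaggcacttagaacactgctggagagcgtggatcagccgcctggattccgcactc
Fads2: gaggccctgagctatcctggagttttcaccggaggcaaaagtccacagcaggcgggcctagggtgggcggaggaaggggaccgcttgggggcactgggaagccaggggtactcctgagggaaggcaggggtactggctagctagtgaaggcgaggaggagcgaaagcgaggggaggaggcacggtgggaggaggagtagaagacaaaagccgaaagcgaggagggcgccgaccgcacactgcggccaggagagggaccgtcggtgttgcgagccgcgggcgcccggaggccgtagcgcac

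Across classes, many of the genes followed the sum of the other 26. Spearman's rho of a gene with that sum, over 26 classes in the stress libraries and 27 in the control libraries, was 0.87 and 0.83 for Srebf2, 0.86 and 0.87 for Msmo1, 0.84 and 0.82 for Fdps and 0.77 and 0.80 for Idi1. It was 0.15 and 0.15 for Ggps1, 0.32 and 0.23 for Insig2 and -0.38 and -0.25 for Ebp. These values describe the classes only, since classes of a tissue share a library and differ in depth. The map of levels by class shows the glial block and the genes outside it.

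**Figure D2:**
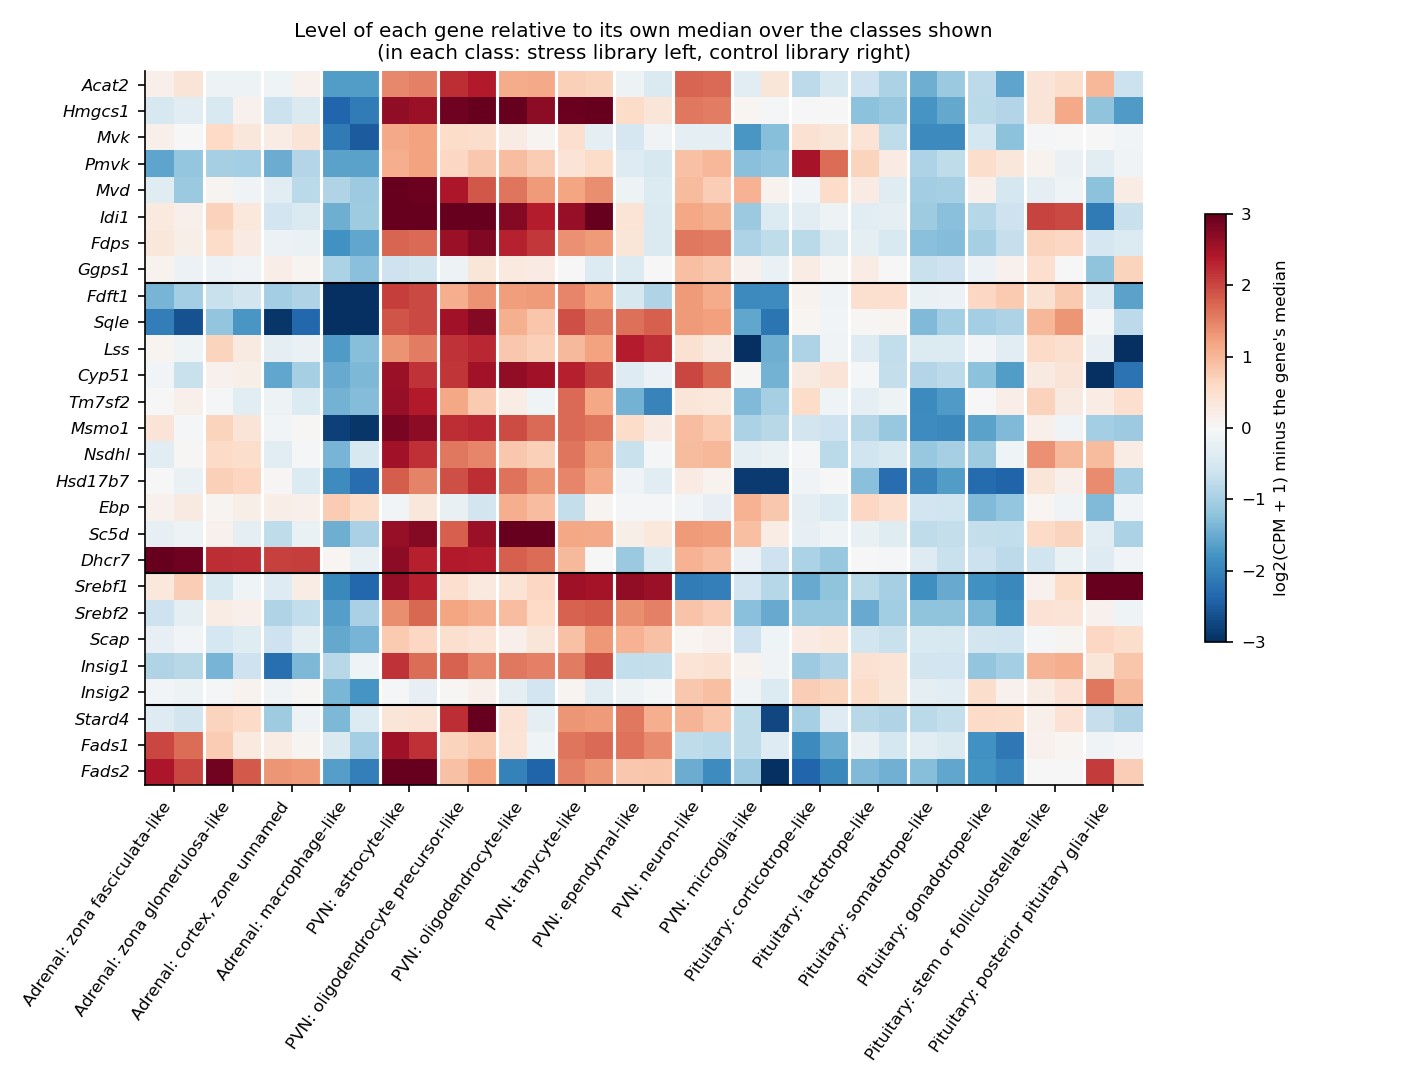
Level of each of the 27 genes (rows, grouped by role) in 17 cell classes, as log2(CPM + 1) minus the gene's median over the columns shown; in each class the stress library is left and the control library right. Most rows are highest in the glial classes of the PVN, whereas Dhcr7 reads 169 and 129.7 CPM in zona fasciculata-like cells and Pmvk 353 and 202 CPM in corticotrope-like cells.

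Among the mevalonate genes, Hmgcs1, which makes HMG-CoA, was at 31.3 and 34.4 CPM in zona fasciculata-like and 31.6 and 47.8 CPM in zona glomerulosa-like cells (stress and control throughout). It was at 281 and 268 CPM in astrocyte-like, 356 and 289 CPM in oligodendrocyte-like, 349.7 and 363 CPM in tanycyte-like and 12.2 and 14.4 CPM in somatotrope-like cells. By CPM the cortex was thus well below the glia and above somatotrope-like cells in both conditions. The part of the somatotrope markers' large share of UMIs in the second difference was not tested. Idi1, the isomerase of isoprenoid units, was at 20.6 and 18.6 CPM in zona fasciculata-like cells, 159 and 168 CPM in astrocyte-like cells and 71.3 and 68.4 CPM in pituitary stem or folliculostellate-like cells. Fdps, which makes farnesyl diphosphate, was at 56.5 and 49.9 CPM in zona fasciculata-like cells and 271 and 311 CPM in oligodendrocyte precursor-like cells, its highest class. For both genes the cortex was again the lower.

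Pmvk, the phosphomevalonate kinase, had its highest level in corticotrope-like cells in both conditions. It was at 20.2 and 27.5 CPM in zona fasciculata-like cells, against 353 and 202 CPM in corticotrope-like, 135 and 145 CPM in astrocyte-like and 117 and 127 CPM in neuron-like cells. The kinase of the step before, Mvk, was at 24.2 and 21.7 CPM in zona fasciculata-like cells, 29.9 and 28.1 CPM in corticotrope-like cells and 48.8 and 50.5 CPM in astrocyte-like cells, its highest class. Mvd, the decarboxylase of the step after, was at 6.52 and 3.43 CPM in zona fasciculata-like cells, 8.04 and 13.2 CPM in corticotrope-like cells and 84.2 and 72.6 CPM in astrocyte-like cells, its highest class too. Corticotrope-like cells thus led for the middle step and not for its neighbours. Acat2, which condenses acetyl-CoA, was at 18.6 and 21.9 CPM in zona fasciculata-like and 80.5 and 90.3 CPM in oligodendrocyte precursor-like cells; reads shared with its near copy Acat3 could not be told apart here. Ggps1, which makes geranylgeranyl diphosphate outside the sterol branch, did not follow the glial order, with 17 and 13.8 CPM in zona fasciculata-like, 9.77 and 10.4 CPM in astrocyte-like and 30.0 and 28.3 CPM in neuron-like cells.

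On the way from squalene to cholesterol, Msmo1, the sterol methyl oxidase, was at 107 and 79.6 CPM in zona fasciculata-like cells, 130.0 and 107 CPM in zona glomerulosa-like cells, 599.6 and 534 CPM in astrocyte-like cells and 386 and 397 CPM in oligodendrocyte precursor-like cells. Sqle, the squalene monooxygenase and a rate-limiting step, was at 6.81 and 4.39 CPM in zona fasciculata-like cells, against 187 and 219 CPM in oligodendrocyte precursor-like, 119 and 128 CPM in astrocyte-like, 102 and 112 CPM in ependymal-like and 12 and 15 CPM in somatotrope-like cells. The zona fasciculata-like cells were thus below both glia and somatotrope-like cells for this step. Fdft1, the squalene synthase, was at 14.8 and 19.5 CPM in zona fasciculata-like cells, against 174 and 163 CPM in astrocyte-like and 63 and 71.1 CPM in gonadotrope-like cells. Sc5d, the sterol C5 desaturase, was at 13.2 and 14.1 CPM in zona fasciculata-like and 138 and 135 CPM in oligodendrocyte-like cells. Lss, the lanosterol synthase, was at 7.97 and 6.75 CPM in zona fasciculata-like and 41.8 and 37.7 CPM in ependymal-like cells. Cyp51, the lanosterol demethylase, was at 14.5 and 9.32 CPM in zona fasciculata-like and 103 and 93.7 CPM in oligodendrocyte-like cells. All of these genes were lower in zona fasciculata-like cells than in the glia named.

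Dhcr7, which carries out the last step to cholesterol in the Kandutsch-Russell branch, did not follow that order. It was at 169 and 129.7 CPM in zona fasciculata-like cells, 79.1 and 78.3 CPM in zona glomerulosa-like cells, 111 and 86.8 CPM in astrocyte-like cells, 58.8 and 54.1 CPM in oligodendrocyte-like cells and 12.2 and 9.87 CPM in somatotrope-like cells. The zona fasciculata-like class was its highest of all classes in both conditions. Adrenal macrophage-like cells, from the same libraries, had 17 and 14 CPM, beside 976 and 758 CPM of 6 steroid synthesis genes that zona fasciculata-like cells held at 23022 and 23384 CPM. Ebp, the sterol isomerase, had another order, with 44.1 and 49.4 CPM in zona fasciculata-like, 75.6 and 57.4 CPM in adrenal endothelial-like, 87.4 and 77.3 CPM in oligodendrocyte-like, 84.8 and 72.3 CPM in microglia-like and 38.3 and 51.8 CPM in astrocyte-like cells. Tm7sf2, Nsdhl and Hsd17b7, reductases and a dehydrogenase of the later steps, were highest in astrocyte-like or oligodendrocyte precursor-like cells and stayed at or below 16.5 CPM in both cortex zones.

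Of the sensing genes, Srebf1, whose product mainly drives fatty acid genes, was highest in posterior pituitary glia-like cells in both conditions. It was at 43.2 and 58.5 CPM in zona fasciculata-like, 24.9 and 31.4 CPM in zona glomerulosa-like, 492 and 418 CPM in posterior pituitary glia-like (43 and 55 cells), 222 and 179 CPM in astrocyte-like, 223 and 214 CPM in ependymal-like and 7.3 and 7.56 CPM in neuron-like cells. Srebf2, which mainly drives cholesterol genes, was at 15.9 and 20.5 CPM in zona fasciculata-like, 29.8 and 28.1 CPM in zona glomerulosa-like, 88.3 and 91.5 CPM in tanycyte-like, 67.6 and 85.5 CPM in astrocyte-like and 46.5 and 42.6 CPM in neuron-like cells. Cortex cells were thus above neuron-like cells for the first factor and below them for the second. Scap was at 26.5 and 29.7 CPM in zona fasciculata-like and 55.6 and 49.3 CPM in astrocyte-like cells. Insig1, itself an SREBP target, was at 24.1 and 25.2 CPM in zona fasciculata-like, 8.65 and 17.1 CPM in the unnamed cortex, 208 and 148 CPM in astrocyte-like and 93.9 and 97.6 CPM in stem or folliculostellate-like cells. Insig2, the second anchor of Scap, was at 55.5 and 53.1 CPM in zona fasciculata-like, 56.4 and 49.3 CPM in astrocyte-like, 104 and 110.5 CPM in neuron-like and 179 and 117 CPM in posterior pituitary glia-like cells. For Insig1 the cortex was well below astrocyte-like cells, for Insig2 it was near them.

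Stard4, a carrier of free sterol, was at 4.06 and 3.54 CPM in zona fasciculata-like cells, 72.9 and 52.9 CPM in PVN endothelial-like, 39.6 and 44.8 CPM in adrenal endothelial-like and 29.4 and 53.4 CPM in oligodendrocyte precursor-like cells. The desaturases of polyunsaturated fatty acids were high both in cortex and in astrocyte-like cells. Fads1, the delta-5 desaturase, was at 162 and 128 CPM in zona fasciculata-like and 238 and 187 CPM in astrocyte-like cells, against 31 and 29.2 CPM in somatotrope-like cells. Fads2, the delta-6 desaturase, was at 43.5 and 32 CPM in zona fasciculata-like, 60.6 and 28.6 CPM in zona glomerulosa-like and 91.7 and 104 CPM in astrocyte-like cells. It was at 1.03 and 0.547 CPM in oligodendrocyte-like and 2.4 and 1.79 CPM in somatotrope-like cells; in oligodendrocyte-like cells these were 3 and 2 UMIs.

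Set against astrocyte-like cells, zona fasciculata-like cells were lower for most of the genes. Counting those with at least 50 UMIs over the compared sums and more than 2-fold apart, 21 of 26 genes were lower in the stress libraries, where 22.3% of all genes were. In the control libraries it was 20 of 26, against 21.2% of all genes. With each cell thinned to 2000 UMIs, fewer genes reached the minimum. Then 15 of 22 were lower in stress, against 22% of all genes, and 12 of 18 in control, against 17.2%. None of the 26 counted was more than 2-fold higher in either, where 18.6% and 19.4% of all genes were. The median log2 ratio of the genes was -2.22 and -1.98, against -0.05 and -0.04 over all genes. The lowest ratio was that of Sqle, -4.12 (-4.63 to -3.65) and -4.86 (-5.43 to -4.33). Dhcr7 was higher in zona fasciculata-like cells, at 0.60 (0.36 to 0.86) and 0.57 (0.22 to 0.96), and so was Ggps1, at 0.75 (-0.03 to 1.75) and 0.33 (-0.61 to 1.66); Insig2 and Ebp lay within 0.2 of 0 on either side. The zona glomerulosa-like cells gave 19 of 27 genes lower in stress (21.6% of all genes) and 20 of 27 in control (20.7%), with medians of -1.81 and -1.86.

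The other glial classes of the PVN gave median ratios between those for astrocyte-like and for microglia-like cells in stress. Over oligodendrocyte-like cells, 15 of 27 genes were more than 2-fold lower in zona fasciculata-like cells in stress (19.4% of all genes) and 12 of 26 in control (19%), with medians of -1.25 and -0.93. The 3 that were more than 2-fold higher in both conditions (27.2% and 28.2% of all genes) were Dhcr7, Fads1 and Fads2. Over oligodendrocyte precursor-like cells the median was -2.12 and -2.05, against -0.44 and -0.44 over all genes, and over tanycyte-like cells -1.49 and -1.46, against -0.17 and -0.22. Over ependymal-like cells it was -0.16 and -0.14, against -0.27 and -0.24 over all genes. Over microglia-like cells it was 0.40 and 0.76, against 0.24 and 0.34. Over the posterior pituitary glia-like cells, which are of another tissue, it was 0.06 and 0.49, against 0.06 and 0.03. Cortex and brain glia came from different tissues, libraries, enzymes and dissociation times (55 and 35 min), and the part of each in these ratios cannot be told apart.

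**Figure D3:**
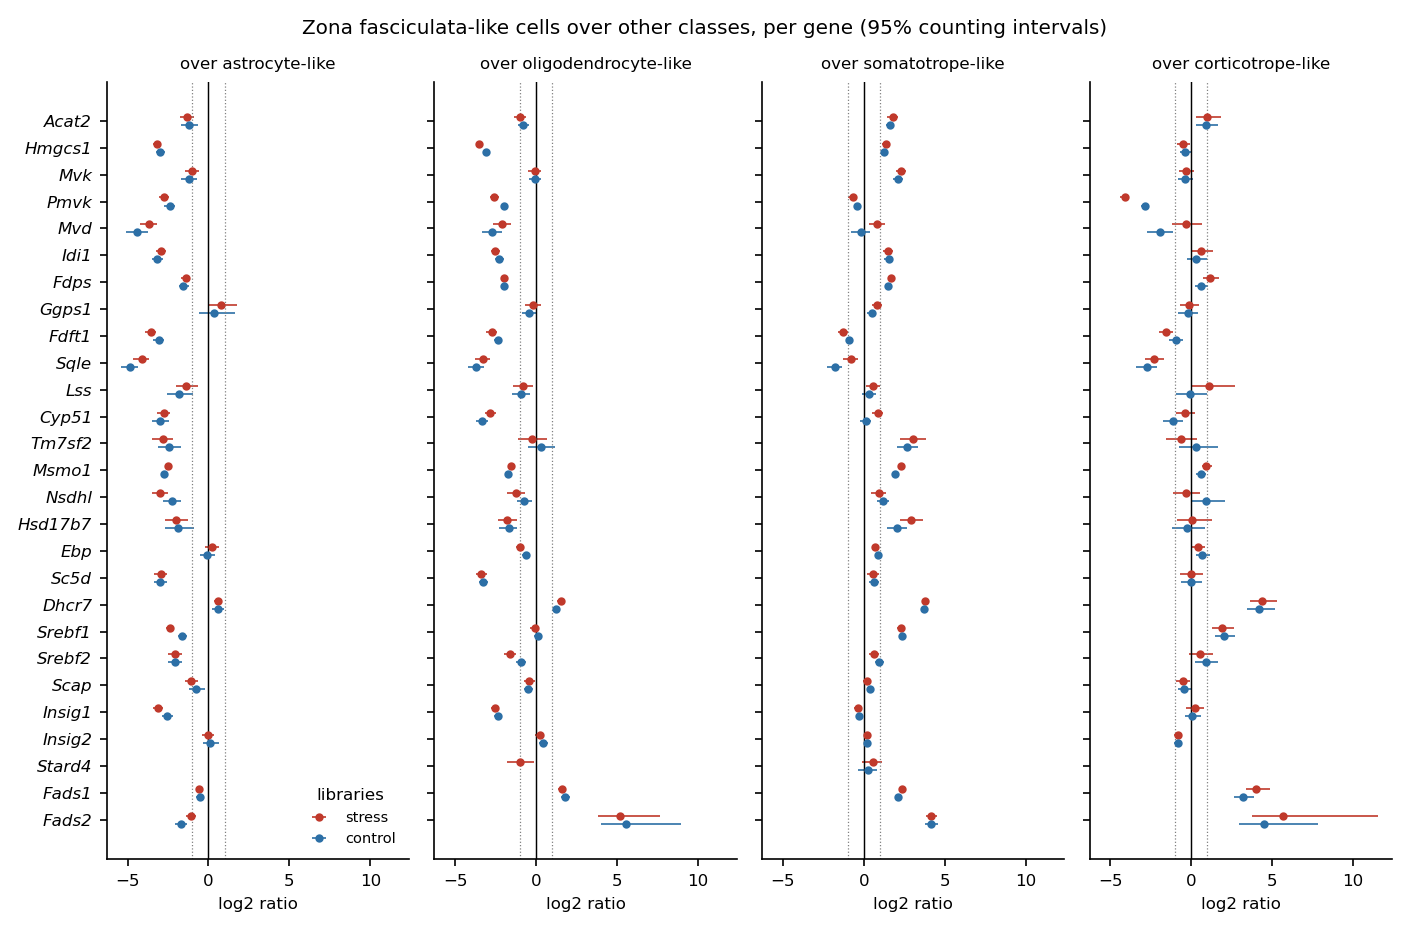
log2 ratio of the level in zona fasciculata-like cells over that in astrocyte-like, oligodendrocyte-like, somatotrope-like and corticotrope-like cells for each gene with at least 50 UMIs over the compared sums, in the stress (red) and control (blue) libraries, with exact 95% counting intervals; dotted lines mark a 2-fold ratio. In the panel for astrocyte-like cells 21 (stress) and 20 (control) points lie beyond the line on the left.

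Endocrine cells of the pituitary were set beside the cortex in the same way. Over somatotrope-like cells, 12 of 27 genes were more than 2-fold higher in zona fasciculata-like cells in stress and 13 of 27 in control, where 46.8% and 41.4% of all genes were. On the lower side it was 1 of 27 and 1 of 27, against 15.2% and 16.1% of all genes. The medians, 0.87 and 0.97, compare with 0.91 and 0.75 over all genes. Scaled to the median ratio of all well-counted genes in place of total UMIs, the set's median was -0.28 in stress and 0.022 in control. Then 8 genes were more than 2-fold higher in each condition. Shares of all genes in this paragraph are for scaling to total UMIs, and those under median scaling are not reported here. Over corticotrope-like cells the median was 0.02 and 0.00, with 6 of 26 genes more than 2-fold higher in stress (20.5% of all genes) and 4 of 26 in control (20.5%). Lower there were 3 of 26 and 4 of 26, against 17.4% and 17.6%. Over melanotrope-like cells the median was 0.62 in stress and 0.64 in control, with 8 of 24 genes higher in stress and 11 of 25 in control, against 38.1% and 31.8% of all genes. Lower were 1 of 24 and 2 of 25, against 7.05% and 11.5%. Over gonadotrope-like cells 9 of 24 and 11 of 26 were higher, against 24.5% and 23.8% of all genes, with medians of 0.73 and 0.71 against 0.28 and 0.22. The lower side held 3 of 24 and 4 of 26, against 14.1% and 15.4%. Over thyrotrope-like cells 5 of 24 and 3 of 25 were higher, against 29.3% and 29.3% of all genes. Lower were 5 of 24 and 5 of 25, against 10.5% and 12%. The medians were 0.00 and 0.11, against 0.40 and 0.37 over all genes. Over lactotrope-like cells 6 of 26 and 7 of 26 were higher, against 25.7% and 25.5% of all genes. Lower were 4 of 26 in each condition, against 16.1% and 15.7%. The zona glomerulosa-like cells had 18 of 27 and 16 of 27 higher over somatotrope-like cells, against 50% and 44% of all genes, but 6 and 6 when scaled to the median ratio. They had 13 of 27 and 12 of 27 higher over gonadotrope-like cells, against 27.4% and 26%. Single genes lay far from these medians. Dhcr7 was at 3.79 (3.63 to 3.95) and 3.71 (3.54 to 3.89) over somatotrope-like cells. Pmvk was at -4.13 (-4.41 to -3.86) and -2.88 (-3.11 to -2.64) over corticotrope-like cells.

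Within the adrenal libraries, where tissue and dissociation were shared, zona fasciculata-like cells were above macrophage-like cells for most genes. In stress, 20 of 24 were more than 2-fold higher (42.3% of all genes) and in control 17 of 24 (47.3%), with medians of 1.72 and 1.70 against 0.76 and 0.91 over all genes. Over adrenal endothelial-like cells the medians were near 0, at 0.09 and 0.18, against -0.06 and -0.07 over all genes. There 6 of 26 genes were more than 2-fold higher in stress and 6 of 25 in control, against 18.6% and 20% of all genes. On the lower side it was 2 of 26 and 2 of 25, against 20.7% and 20.9%. Over chromaffin-like cells, the catecholamine cells of the medulla (41 and 28 cells), the median was -0.32 and -0.17. Chromaffin-like cells held 1216 and 5694 CPM of the steroid synthesis genes, and the part of cortex transcripts in their levels was not tested.

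Between the zones of the cortex, 3 genes were more than 1.5-fold higher in zona fasciculata-like than in zona glomerulosa-like cells in each condition (9.47% of all genes in stress and 9.06% in control), and they were the same 3: Fads1, Dhcr7 and Srebf1. Fads1 was at 162 CPM in zona fasciculata-like and 68 CPM in zona glomerulosa-like cells in stress, and at 128 and 48.9 CPM in control, log2 ratios of 1.25 (1.12 to 1.39) and 1.39 (1.24 to 1.54). Dhcr7 had ratios of 1.09 (0.97 to 1.22) and 0.73 (0.60 to 0.86), and Srebf1 0.80 (0.56 to 1.04) and 0.90 (0.70 to 1.10). With each library clustered alone, the stress ratios of Dhcr7 and Fads1 were 0.62 and 0.72.

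More genes stood on the zona glomerulosa-like side: 8 of 27 were more than 1.5-fold lower in zona fasciculata-like cells in stress (12.9% of all genes) and 5 of 27 in control (9.53%). Stard4 had the lowest ratio in both, -1.21 (-1.88 to -0.62) and -1.29 (-1.92 to -0.72), followed in stress by Nsdhl at -0.99 (-1.45 to -0.56) and Sqle at -0.96 (-1.47 to -0.48); in control Mvd came next at -1.19 (-1.84 to -0.61), and Sqle was at -0.98 (-1.56 to -0.45). Srebf2 was at -0.90 (-1.23 to -0.59) and -0.45 (-0.72 to -0.19), on the other side from Srebf1. Fads2 lay on different sides, -0.48 (-0.68 to -0.28) in stress and 0.16 (-0.07 to 0.40) in control, and so did Insig1, 0.52 (0.21 to 0.83) and -0.22 (-0.47 to 0.03). The median over the 27 genes was -0.28 and -0.22, against -0.12 and -0.08 over all genes.

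The zona fasciculata-like class was not uniform. Its 3 clusters, formed without the 27 genes, had summed levels of 602 and 649.7 CPM (cluster 7), 1072 and 1073 CPM (cluster 11), and 2020.0 CPM (1920.2 to 2124) and 1356 CPM (1256 to 1462) in cluster 12 (stress and control). Cluster 12, led by the efflux pump gene Abcb1b (the leading genes of clusters were named after their values were seen), held 82 stress and 57 control cells, with a median of 8797 UMIs per cell, against 13644 in cluster 11 and 12753 in cluster 7. Fads1 in it was at 526 and 310.2 CPM, against 178 and 186 CPM in cluster 11 and 56.2 and 56.9 CPM in cluster 7. Dhcr7 was at 348 and 185 CPM, against 216 and 186 CPM in cluster 11 and 77.6 and 73.2 CPM in cluster 7. Fdps was at 206 and 91.5 CPM, against 44.2 and 61.1 CPM in cluster 11. In the stress library all 3 genes had their highest level among the cortex clusters in cluster 12; in the control library Dhcr7 was as high in cluster 11. Cluster 7, whose leading genes are the stress-responsive Mt2, Cyr61 and Socs3, had the lowest sum of the 3. Cluster 12 made up 15.9% of the class in stress and 9.19% in control. Among zona glomerulosa-like clusters the sum ran from 708 CPM (cluster 3, control) to 1118 CPM (cluster 9, stress).

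**Figure D4:**
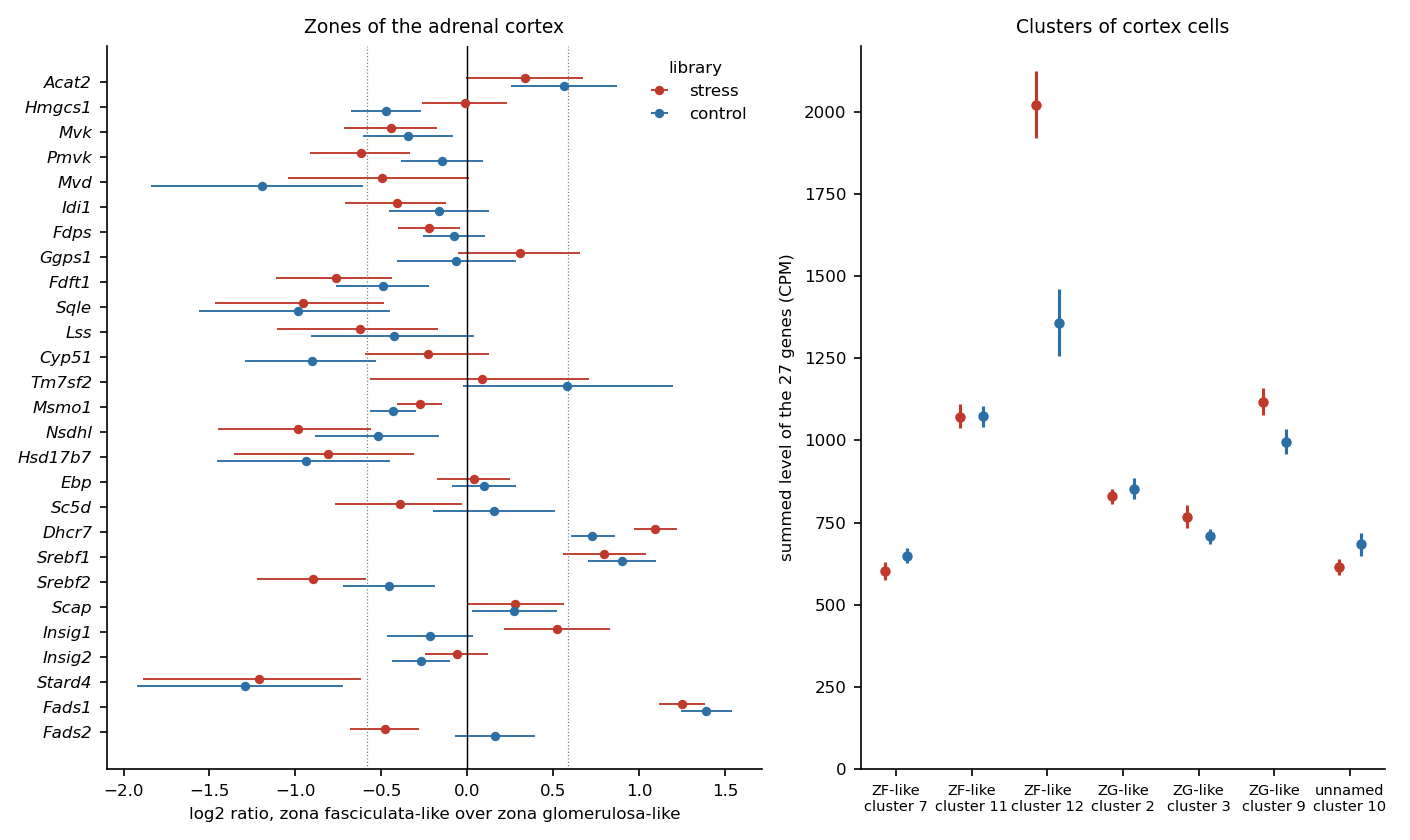
Left, log2 ratio of zona fasciculata-like over zona glomerulosa-like cells for each gene in the stress (red) and control (blue) library with exact 95% counting intervals, dotted lines at a 1.5-fold ratio; right, summed level of the 27 genes in CPM in each cortex cluster. Fads1, Dhcr7 and Srebf1 lie beyond the right line in both libraries, and cluster 12 reads 2020.0 CPM in stress and 1356 CPM in control.

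Whether chronic defeat moves these genes was read as the ratio of the stress over the control library within a class. Few genes passed 1.5-fold in any class, and the directions differed between classes. In zona fasciculata-like cells, 3 of 27 genes were more than 1.5-fold higher in stress (2.77% of all genes) and none lower (4.51%). Mvd was at 6.52 CPM in stress and 3.43 CPM in control (log2 0.92, 0.24 to 1.63), Cyp51 at 14.5 and 9.32 CPM (0.64, 0.21 to 1.07) and Sqle at 6.81 and 4.39 CPM (0.63, -0.0020 to 1.27). All 3 were low, with 32 to 100 UMIs per library, and the interval of Sqle included 0. The median of the 27 was 0.14, against -0.02 over all genes, and -0.18 with each library clustered alone. Cluster 7 held 40.3% and 45.5% of the class (stress and control), cluster 11 43.8% and 45.3% and cluster 12 15.9% and 9.19%. Cyp51 had a ratio of 0.0031 (-0.73 to 0.70) in cluster 7, 0.95 (0.29 to 1.65) in cluster 11 and 0.63 (-0.45 to 1.89) in cluster 12. For Mvd these were 0.41 (-0.74 to 1.53), 1.17 (0.21 to 2.22) and 1.52, the last from 6 and 1 UMIs, and for Sqle 0.04, 0.68 and 0.35, each with an interval that included 0.

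Of the 5 sensing genes, 4 were on the lower side in stress in zona fasciculata-like cells, none past 1.5-fold. Srebf1 was at 43.2 CPM in stress and 58.5 CPM in control (-0.44, -0.65 to -0.23), Srebf2 at 15.9 and 20.5 CPM (-0.36, -0.71 to -0.01), Scap at 26.5 and 29.7 CPM (-0.16, -0.44 to 0.11) and Insig1 at 24.1 and 25.2 CPM (-0.06, -0.36 to 0.23). Insig2 was at 55.5 and 53.1 CPM (0.06, -0.13 to 0.26). Within clusters 7, 11 and 12, in that order, Srebf1 was at -0.62 (-1.01 to -0.26), -0.58 (-0.86 to -0.30) and 0.44 (-0.23 to 1.18). Srebf2 was at -1.09 (-1.79 to -0.47), -0.057 (-0.54 to 0.41) and 0.28 (-0.92 to 1.67), and Insig1 at -1.02 (-1.67 to -0.44), -0.054 (-0.47 to 0.35) and 1.12 (0.27 to 2.13). In cluster 7 the intervals of all 3 genes lay below 0. In cluster 11 only that of Srebf1 did, and in cluster 12 only that of Insig1 lay above 0.

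In zona glomerulosa-like cells, 2 genes were more than 1.5-fold higher in stress (2.48% of all genes) and 2 lower (2.62%). Fads2 was at 60.6 CPM in stress and 28.6 CPM in control (1.08, 0.89 to 1.28), and Sqle at 13.3 and 8.74 CPM (0.60, 0.23 to 0.99). Insig1 was at 16.7 CPM in stress and 29.3 CPM in control (-0.80, -1.07 to -0.54), and Hmgcs1 at 31.6 and 47.8 CPM (-0.59, -0.79 to -0.40). Different clusters held most of the class: cluster 2 held 58.9% of it in stress and 33.5% in control, and cluster 3 20.2% and 41.7%. Within clusters 2, 3 and 9, in that order, Fads2 was at 0.71, 1.19 and 1.09, Sqle at 0.055, 0.73 and 0.72, Hmgcs1 at -0.95, -0.36 and -0.55, and Insig1 at -0.70, -0.94 and -0.78. Fads2, Hmgcs1 and Insig1 kept their side in all 3 clusters, while Sqle was near 0 in cluster 2, which held most of the class in stress. After subtracting the ratio in all other adrenal cells, Insig1 was at -0.37 and Hmgcs1 at -0.26, while Fads2 was at 0.98. The unnamed cortex cells had 4 genes lower (3.6% of all genes) and none higher (3.7%) of 20: Insig1 at 8.65 CPM in stress and 17.1 CPM in control (-0.99, -1.69 to -0.29), Pmvk (-0.65), Srebf1 (-0.63) and Sc5d (-0.61).

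Insig1 was on the lower side in stress in 14 of the 21 classes with at least 50 UMIs, and past 1.5-fold in 4 of them: both cortex classes above, adrenal macrophage-like cells and melanotrope-like cells. Such a lean was not particular to Insig1: Acat2 was lower in 9 of 11 classes and Fdft1 in 12 of 17, while Dhcr7 was higher in 10 of 11. Classes of a tissue share 1 pair of libraries and are not replicates, and the same count over all genes is not reported here. In adrenal macrophage-like cells Insig1 was at 25 CPM in stress and 41.5 CPM in control (-0.73, -1.20 to -0.27), 1 of 9 genes lower (4.19% of all genes). Fads1 was the 1 higher (0.61, 0.06 to 1.20, with 5.87% of all genes higher). Summed macrophage markers in the cortex classes also differed between the libraries, at 197 CPM in stress and 93.1 CPM in control in zona fasciculata-like, 189 and 90.2 CPM in zona glomerulosa-like, and 153 and 73 CPM in the unnamed cortex cells, against 60416 and 64198 CPM in macrophage-like cells. In macrophage-like cells Fads2 was at 1.6 and 0.999 CPM and Hmgcs1 at 7.68 and 9.49 CPM, below their cortex levels. The part of macrophage transcripts in the Insig1 ratios was not tested.

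In adrenal endothelial-like cells Msmo1 was the 1 gene of 9 past 1.5-fold, at 53.3 CPM in stress and 30.8 CPM in control (0.77, 0.09 to 1.55; 3.94% of all genes higher), from 74 and 22 UMIs. It was on the other side with no cell filter (-0.23), with doublets kept (-0.19) and with each library clustered alone (-0.22). In chromaffin-like cells only Msmo1 and 1 other gene reached 50 UMIs, and Msmo1 was at 82.4 and 143 CPM (-0.79, -1.56 to -0.04; 8.93% of all genes lower). Summed markers in chromaffin-like cells differed too: those of steroid synthesis were at 1216 CPM in stress and 5694 CPM in control, of macrophages at 506 and 75.9 CPM and of endothelium at 42.6 and 228 CPM. Their part in the ratio was not tested.

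In the PVN, no gene passed 1.5-fold in astrocyte-like cells (23 counted; 3.08% of all genes higher and 3.02% lower) or oligodendrocyte-like cells (24 counted; 1.7% and 1.99%). In oligodendrocyte-like cells 20 of 24 genes were on the higher side in stress, with a median of 0.18 against -0.01 over all genes. Hmgcs1 was at 356 CPM in stress and 289 CPM in control (0.30, 0.17 to 0.42), Msmo1 at 319 and 267 CPM (0.25, 0.12 to 0.38) and Idi1 at 118 and 89.9 CPM (0.39, 0.17 to 0.61). After subtracting the ratio in all other PVN cells the median was 0.039. The astrocyte-like median was 0.09, with Insig1 at 208 CPM in stress and 148 CPM in control (0.49, 0.17 to 0.82). Oligodendrocyte precursor-like cells had 14 of 21 genes on the lower side; Stard4 (-0.85, -1.67 to -0.08) and Sc5d (-0.79, -1.37 to -0.24) passed 1.5-fold (3.32% of all genes lower), and Stard4 rested on 23 and 39 UMIs.

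Ependymal-like cells had 2 of 18 genes higher in stress (2.99% of all genes), Idi1 at 22.5 and 12 CPM (0.89, 0.11 to 1.73) and Fdps at 57.3 and 32.4 CPM (0.82, 0.34 to 1.31), which act at successive steps. In tanycyte-like cells Ebp was the 1 of 16 lower in stress (-0.79, -1.82 to 0.10; 4.95% of all genes), and in PVN endothelial-like cells Srebf1 the 1 of 17 (-1.04, -1.91 to -0.22; 3.61%). Neuron-like cells had the deepest sums of the PVN classes, and 21 of 27 genes were on the higher side with a median of 0.07. After thinning to 2000 UMIs per cell the median was -0.015. Fads2 was the 1 neuronal gene past 1.5-fold (1.14% of all genes), at 1.92 and 1.23 CPM (0.63, -0.16 to 1.46).

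In the pituitary, Pmvk in corticotrope-like cells was at 353 CPM in stress and 202 CPM in control (614 and 353 UMIs; 0.80, 0.61 to 1.00), the 1 gene of 13 past 1.5-fold in this class (3.51% of all genes higher). UMIs of Pmvk came from 161 of 243 cells in stress and 139 of 274 in control, and leaving out the 5 cells with most UMIs in each library gave 0.82. Mvk, the kinase of the step before, was at 29.9 and 28.1 CPM in the same cells. In lactotrope-like cells, the prolactin cells, 3 of 22 genes were higher in stress (2.01% of all genes): Mvk at 29 CPM in stress and 12.3 CPM in control (1.22, 0.75 to 1.74), Cyp51 at 15.2 and 9.05 CPM (0.73, 0.14 to 1.37) and Mvd at 10.4 and 6.54 CPM (0.66, -0.05 to 1.42). Gonadotrope-like cells had Mvk on the same side, with 1 of 12 genes past 1.5-fold (0.76, -0.05 to 1.61; 2.29% of all genes).

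Somatotrope-like cells, the largest pituitary class, had 1 of 27 genes lower, Hsd17b7 (-0.63, -1.35 to 0.07; 5.39% of all genes), and a median of -0.02 against -0.17 over all genes; scaled to the median ratio of all genes it was 0.15. Melanotrope-like cells had 3 of 8 genes lower, Scap (-1.14, -2.12 to -0.29), Insig1 (-0.91, -1.67 to -0.21) and Fdft1 (-0.74, -1.60 to 0.04), in a comparison in which 14.7% of all genes were lower. Thyrotrope-like cells had Msmo1 higher (0.72, 0.01 to 1.52; 5.86% of all genes) and Scap lower (-0.64, -1.48 to 0.21; 4.63%) of 7. Stem or folliculostellate-like cells had Hmgcs1 lower, at 57.7 CPM in stress and 97.6 CPM in control (-0.76, -1.13 to -0.39), 1 of 20 (2.95%). Insig2 was higher in posterior pituitary glia-like cells (0.61, 0.03 to 1.20), 1 of 3 (5.14%).

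**Figure D5:**
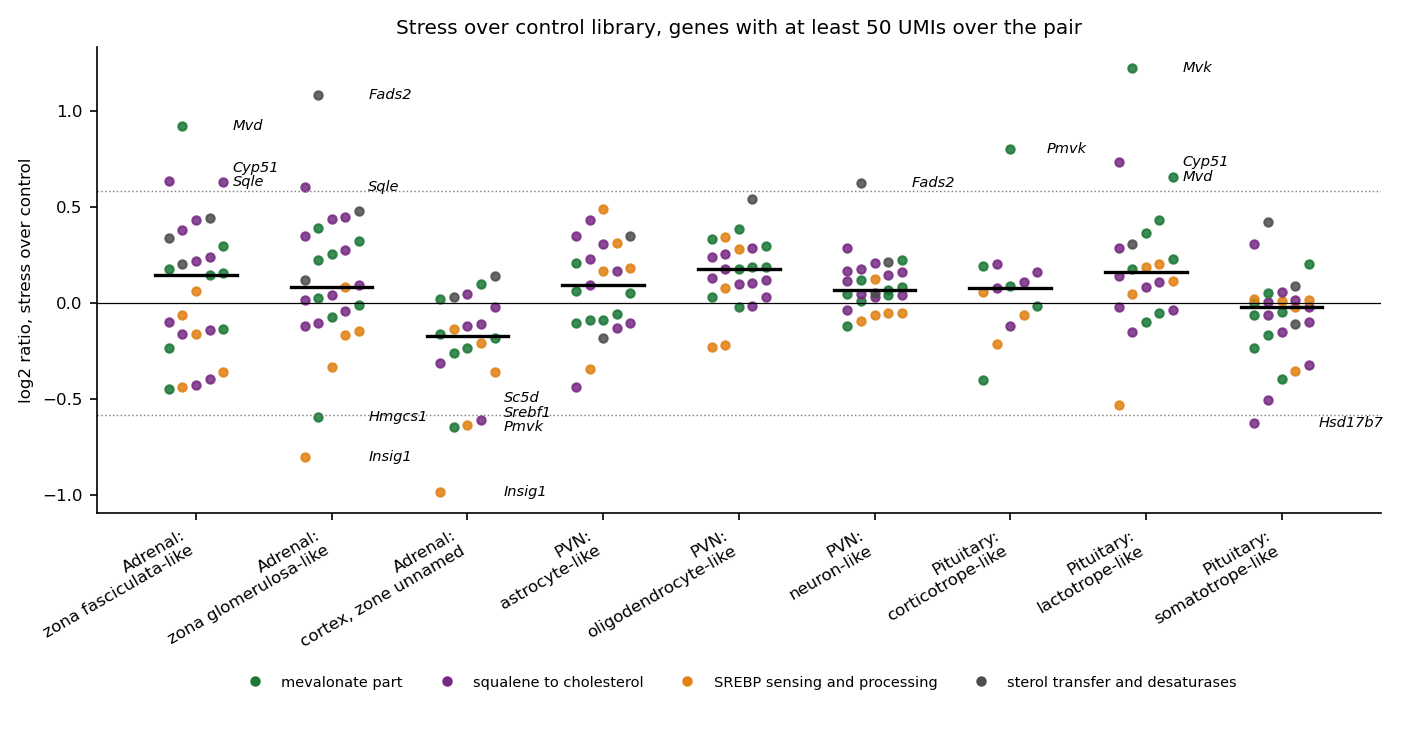
log2 ratio of the stress over the control library for each gene with at least 50 UMIs over the pair in 9 classes, coloured by role; black bars are medians over the genes shown, dotted lines mark a 1.5-fold ratio and genes beyond them are named. The medians lie between -0.17 (cortex, zone unnamed) and 0.18 (oligodendrocyte-like).

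Neighbouring genes of the pathway were read in the same way. Of 10 fatty acid genes driven by SREBP-1, 6 of 9 counted were more than 2-fold lower in zona fasciculata-like than in astrocyte-like cells in stress and 5 of 9 in control, where 22.3% and 21.2% of all genes were, and 2 were higher in each: Me1, the malic enzyme, at 1068 and 1096 CPM in zona fasciculata-like against 124 and 133 CPM in astrocyte-like cells, and Acly, which makes cytosolic acetyl-CoA, at 460.3 and 415 CPM against 93.2 and 98.5 CPM. Of 10 genes of cholesterol use for steroids, 8 of 9 were higher in zona fasciculata-like cells in stress, against 18.6% of all genes. In control it was 9 of 9, against 19.4%. Cyp11b1 and Hsd3b1 of this list were also markers that named the class. Star, Cyp11a1, Cyp21a1, Cyp11b2, Fdx1 and Scarb1 were on marker lists too and were not left out of the clustering genes. These counts thus follow in part from how the class was formed. Scarb1, the lipoprotein receptor, was at 1083 and 923 CPM against 24 and 23.3 CPM in astrocyte-like cells. Soat1, which stores sterol as ester, was at 491 and 426 CPM against 160.0 and 139 CPM.

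The genes Dhcr7, Fads2, Pmvk and Insig1 lie, on GRCm38, at chr7:143823145-143848410 (Dhcr7), chr19:10062765-10101746 (Fads2), chr3:89454541-89469013 (Pmvk) and chr5:28071363-28078662 (Insig1). Some of the counts may hold reads of other genes. Exons of Fdps and Tm7sf2 overlap those of Gm43738 and Vps51 on the same strand, and exons of Ggps1, Fdft1, Cyp51 and Srebf1 overlap those of Arid4b, Ctsb, Akap9 and Rai1 on the opposite strand, per GENCODE coordinates on GRCm38. Whether counting used strand is not given in the sources used here, so values of these genes are uncertain to that extent. Idi1 has a near copy, Idi2, as Acat2 has Acat3.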

How the data were processed

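The deposited files hold raw UMI counts per gene and barcode for 6 droplet (10x Genomics) libraries, made by the authors. Cell Ranger 2.1.1, the build mm10 and, without a role, Scanpy are named in the submitters' processing notes. The counting annotation and strand are not given in the sources used here. Depths ranged from 29059956 to 53244403 UMIs per library.

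Barcodes under 200 genes or over 25% mitochondrial UMIs were dropped, and doublets were removed at 0.8% per 1000 cells by a score from simulated doublets, so their number was set by the rate. Cells of a tissue were clustered jointly (Scanpy 1.11.5, 2000 variable genes, 30 components, 15 neighbours, Leiden resolution 1) without the 27 genes. A cluster needed at least 3 markers; rules for erythroid clusters, for clusters with markers of 2 classes and for the unnamed cortex zone were set after the clusters were seen. The clusters left unnamed held 159 stress and 95 control cells in the adrenal and 62 and 77 in the PVN. UMIs were summed per class and library, and ratios had 0.5 UMI added to each sum; a gene counted with at least 50 UMIs over both sums. The fold limits were 1.5 between conditions or zones and 2 between classes. The fold and interval steps were tested on simulated data. Alternatives changed scaling, minimum, added UMIs, cell filters, clustering and depth; within-cluster ratios were added after seeing the data. The 27 genes, the lists and the rule for named genes (all members by role, with values for the highest and lowest ratios and the sensing genes, and other genes from pathway lists or cell markers) were chosen with earlier results of these data known. Some genes of the pathway outside the 27 are not reported here. Coordinates came from GENCODE vM21 on GRCm38 and promoters from RefSeq.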

Additional observations from a re-analysis of the deposited data

Results flagged for a closer look

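Msmo1 differed in direction between 2 adrenal classes: the log2 ratio of stress over control was 0.77 in endothelial-like cells (53.3 CPM in stress and 30.8 CPM in control) and -0.79 in chromaffin-like cells (82.4 CPM in stress and 143 CPM in control). In endothelial-like cells it was on the other side, at -0.23 with no cell filter, -0.19 with doublets kept and -0.22 with each library clustered alone. Pmvk was at 0.80 in corticotrope-like cells of the pituitary (353 CPM in stress and 202 CPM in control) and -0.65 in adrenal cortex cells without a zone name (21.6 CPM in stress and 33.8 CPM in control). The differences between the classes were not tested, since each rests on 1 library per condition.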

How the results depend on the processing

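No paired analysis was possible because each tissue and condition had 1 library. Scaled to the median ratio of all genes in place of total UMIs, the median of ZF (fasciculata-like) over somatotrope-like cells was -0.28 in stress and 0.022 in control, that of ZG (glomerulosa-like) 0.19 and 0.045, and the stress over control median in somatotrope-like cells 0.15. The genes more than 2-fold higher then numbered 6 (stress) and 6 (control) for ZG over somatotrope-like, 8 for ZF over somatotrope-like and 7 for ZF over corticotrope-like cells (both control). For ZG over corticotrope-like cells they numbered 5 with no cell filter (control) and, thinned to 2000 UMIs per cell, 5 in stress and 4 in control. Shares of all genes for these rescaled, unfiltered or thinned counts are not reported here. Thinned, 12 of 18 genes counted were lower in ZF than in astrocyte-like cells (control), against 17.2% of all genes. The neuron-like stress over control median, thinned, was -0.015. With each library clustered alone that median was -0.18 in ZF and 0.41 in ZG. After subtracting other cells of the tissue it was 0.039 in oligodendrocyte-like and -0.037 in neuron-like cells. Srebf1 in ZG, lower in stress by its level (24.9 CPM, against 31.4 CPM in control), was then on the other side, at 0.31. Msmo1 in adrenal endothelial-like cells was at -0.23 with no cell filter, -0.19 with doublets kept and -0.22 with each library alone. Within cluster 12, chosen after seeing the data, Srebf1 was at 0.44 and Srebf2 at 0.28. Without thinning, genes seen per cell were 7.45 (stress) and 8 (control) in ZF and 7.72 and 7.49 in astrocyte-like cells. The looser sterol element TCANNCCA stood in promoters of 5 of 22 genes (22.7%), against 17.6% of all genes. The causes of these shifts were not tested. Depth limits the low genes, and with 1 library per group the spread between mice is not measured.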

Other observations

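Apoe, a lipoprotein gene of the sterol efflux list, was higher in stress in cortex cells. It was at 254 and 119 CPM (stress and control) in zona fasciculata-like cells, 262 and 153 CPM in zona glomerulosa-like cells and 34318 and 31071 CPM in adrenal macrophage-like cells. The log2 ratio was 1.09 in zona fasciculata-like and 0.78 in zona glomerulosa-like cells. Macrophage markers in zona fasciculata-like cells summed to 197 CPM in stress and 93.1 CPM in control, and their part in the Apoe values was not tested.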
